A study of Homo sapiens with 10 samples.

Results

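In U2OS cells, a human osteosarcoma line, 118 of 63187 genes were nearly silent before heat shock and readable after it. They were chosen by their read counts. CPM is the count of a gene per 1000000 counts in its library. A gene was taken when its mean was under 1 CPM in the unheated controls and it reached 2 CPM or more in each heat-shocked control library. HSPA2 and genes of the Y chromosome were left out by that rule. Before heat 47352 genes lay under 1 CPM, so the 118 are a small part of the near-silent genes and the other 47234 did not meet the rule. The rise with heat is therefore how the genes were found, and every value for it below is a description without a test.

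The RNA-seq libraries formed 3 groups of 2, 6 in all. They were control cells without heat shock, control cells with heat shock, and heat-shocked cells in which YTHDC1 had been knocked down, with a control reagent in the first and second group. The sample titles write the reagents as sh and the descriptions as si, so the word knockdown is used. How hot and how long the cells were heated, and any recovery after it, was not given in the sources used here. No unheated knockdown was analysed, so the knockdown values below hold for heat-shocked cells. The study asked how YTHDC1 and m6A, a methylated adenosine in RNA, bear on DNA repair genes after heat. The 4 m6A immunoprecipitation samples of the series were not analysed here.

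Heat shock unfolds proteins, and cells answer with HSF1, a transcription factor that forms trimers and binds heat shock elements, arrays of the short unit GAA and its inverse TTC. Its classical targets are chaperone genes that are already open and carry a poised polymerase. Heat also disturbs the ends of transcription units, so that polymerase can run on beyond a gene into what lies downstream. YTHDC1 is a nuclear protein that reads m6A and takes part in splicing, export and chromatin regulation. Genes that are silent in a cell line often belong to other tissues, such as blood, germ line or neurons.

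The libraries held 13252370 to 15500743 counts, so that 2 CPM stood for 26.5 to 31.0 reads and 1 CPM for 13.3 to 15.5 reads. Mitochondrial genes took 5.09% to 6.12%. All 8 markers of the mesenchymal line were present, at a summed 5607 to 6442 CPM per library. YTHDC1 stood at 217 and 232 CPM in unheated controls, at 263 and 252 CPM in heat-shocked controls and at 119 and 117 CPM with the knockdown. It was lower in both knockdown libraries (edgeR log2 fold change -1.14 ± 0.05 SE, n = 2 each, adjusted p = 2.65e-15). No label states that replicate libraries were separate cultures, and the p-values then measure only the spread between these libraries, which may be technical. In bulk RNA, fewer expressing cells and less RNA per cell cannot be told apart.

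Of the 118 genes, 49 were protein-coding in RefSeq, 22 were pseudogenes, 11 were long non-coding RNAs and 3 were of another kind. The other 33 had no single RefSeq entry that matched by symbol, chromosome and position. MIR137HG is among them, although it has a RefSeq promoter window. The genes lay on 22 chromosomes. Their median level was 0.557 CPM before heat, 2.97 CPM after heat and 2.37 CPM in the heat-shocked knockdown. After heat 6 of them stood at 10 CPM or more, 15 between 5 and 10 CPM and 97 under 5 CPM, with 62 of those under 3 CPM and a range of 2.07 to 23.1 CPM. Most of the set thus lay close to the lower limit of the rule. Together the genes took 65.9 and 67.9 CPM in the unheated controls, 487 CPM in each heat-shocked control and 432 and 438 CPM in the knockdown.

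Against the heat-shocked controls, 15 members were higher and 51 lower with the knockdown, and 52 were not called (edgeR, adjusted over all genes). These are 12.7% and 43.2% of the members, and over all 17290 genes tested 27.4% were higher and 27.2% lower. The median log2 fold change was -0.45 over the members, with a range of -4.19 to 1.68, and -0.00 over all genes tested. DESeq2 called 7 members higher and 22 lower, all of them among the genes that edgeR called in that direction. Over all genes DESeq2 called 3225 higher and 3275 lower, where edgeR called 4729 and 4696. From edgeR to DESeq2 the calls in both directions thus dropped more steeply among the members than over all genes. The heat-shocked controls took part in choosing the members, so the split between higher and lower, in all of them and in each group below, is a description. For the same reason the p of a single fall is not independent of the choice. Of the members 5, all lower, had fewer than 2 libraries at the filter's minimum count outside the heat-shocked controls, and no p or SE is given for them. They are SLAMF8, EPGN, TDRD6, ENSG00000273851 and ENSG00000289584, and the 51 and the counts by group below include them.

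PNLDC1 encodes a 3′ exonuclease that trims piRNA precursors in the germ line. It lies on chromosome 6 (chr6:159799455-159820704, GRCh38, plus strand). It stood at 0.194 and 0.332 CPM before heat, at 24.8 and 21.4 CPM after heat and at 11.8 and 13.2 CPM in the heat-shocked knockdown. The unheated level rests on 8 reads in all, and the means differed 87.9-fold between heated and unheated controls. Both knockdown libraries fell between the groups of controls. The knockdown kept 54.2% of the heat-shocked control level (log2 fold change -0.89 ± 0.12 SE, edgeR adjusted p = 6.64e-07).

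PLPPR5 encodes a membrane protein related to lipid phosphate phosphatases that promotes filopodia and neurite growth. It lies on the minus strand of chromosome 1 (chr1:98890245-99005786). Its level was 0.387 and 0.464 CPM before heat, 16.8 and 17.6 CPM after heat and 12.3 and 10.9 CPM in the knockdown, with 13 reads behind the unheated value. The knockdown libraries again lay below both heat-shocked controls and far above the unheated ones. The knockdown kept 67.6% of the heat-shocked level (log2 fold change -0.58 ± 0.12 SE, edgeR adjusted p = 2.58e-04).

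TNFSF14, also known as LIGHT, is a TNF family ligand that activated lymphocytes display and that acts through TNFRSF14 and LTBR. It lies on the minus strand of chromosome 19 (chr19:6661253-6670588). It stood at 0.129 and 0.332 CPM before heat, 7 reads in all, at 16.8 and 16.7 CPM after heat and at 27.0 and 24.3 CPM in the knockdown. Here the knockdown libraries lay above the heat-shocked controls, the opposite order to PNLDC1 and PLPPR5. The level with the knockdown was 154% of that without it (log2 fold change 0.60 ± 0.11 SE, edgeR adjusted p = 3.98e-05).

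The 300 bases around a RefSeq start of these 3 genes, 250 before it and 50 after it, are shown to let the promoters be compared with those of chaperone genes. They are read 5′ to 3′ on the gene's own strand, from RefSeq (GRCh38.p14). Capitals mark the 13 bases that come closest to a heat shock element of 3 alternating units, with at most 1 base of the units amiss. PNLDC1 has none in this window and so stands in lower case.
PNLDC1 (chr6:159800026-159800325, plus strand): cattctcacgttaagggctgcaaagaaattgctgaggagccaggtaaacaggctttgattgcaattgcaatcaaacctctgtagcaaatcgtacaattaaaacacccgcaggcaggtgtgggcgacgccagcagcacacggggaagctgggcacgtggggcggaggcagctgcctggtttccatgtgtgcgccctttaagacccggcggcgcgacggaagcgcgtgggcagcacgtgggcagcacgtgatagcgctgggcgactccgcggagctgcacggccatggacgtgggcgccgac
PLPPR5 (chr1:99004812-99005111, minus strand): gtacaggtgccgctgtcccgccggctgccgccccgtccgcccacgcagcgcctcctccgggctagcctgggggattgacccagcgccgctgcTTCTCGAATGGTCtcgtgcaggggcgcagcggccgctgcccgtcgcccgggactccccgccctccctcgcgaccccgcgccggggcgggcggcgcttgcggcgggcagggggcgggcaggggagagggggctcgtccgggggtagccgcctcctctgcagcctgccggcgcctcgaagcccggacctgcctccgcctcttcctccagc
TNFSF14 (chr19:6670111-6670410, minus strand): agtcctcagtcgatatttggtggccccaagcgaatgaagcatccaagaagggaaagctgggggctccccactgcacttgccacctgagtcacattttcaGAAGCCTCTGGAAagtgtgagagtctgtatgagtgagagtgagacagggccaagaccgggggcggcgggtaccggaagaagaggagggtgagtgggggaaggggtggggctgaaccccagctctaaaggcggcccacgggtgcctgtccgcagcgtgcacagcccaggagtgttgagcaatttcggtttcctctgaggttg

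A full element has 3 units in alternation, GAA, TTC, GAA or the inverse, each separated by 2 free bases. It was searched for on both strands of promoter windows of this length, and overlapping elements were allowed. 0 of the 47 genes with a window held one, which leaves a share of up to 7.55% inside the exact 95% Clopper-Pearson interval. All promoters together had it in 166 of 27326 windows (0.607%). The heat response list, which holds chaperones and other known HSF1 targets, had it in 8 of 24 (33.3%). The sites of 3 of those are shown, with 10 bases on either side and the element in capitals.
HSPA6 (chr1:161524456-161524488, plus strand): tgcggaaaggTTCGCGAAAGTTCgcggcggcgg
DNAJB6 (chr7:157336863-157336895, plus strand): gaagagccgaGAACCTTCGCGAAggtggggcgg
HSP90AA1 (chr14:102087110-102087142, minus strand): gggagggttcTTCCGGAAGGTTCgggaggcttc

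Looser forms of the element were present among the genes. A site of 3 units with 1 mismatch stood in 5 of 47 windows (10.6%), against 7.59% of all promoters and 79.2% of the heat response list. These 5 were PLPPR5, TNFSF14, SLAMF8, EPGN and DMRT1. An element of only 2 units, GAANNTTC or TTCNNGAA, stood in 10 of 47 (21.3%), against 16.2% of all promoters and 79.2% of the heat response list. The members' shares thus lay near those of all promoters. A window covers only the RefSeq start it was built on, which for some genes lies inside the gene's RefSeq span. The PNLDC1 window begins at base 159800026, but the span of the gene begins at 159799455. On the minus strand the PLPPR5 and TNFSF14 windows shown end at 99005111 and 6670410, but the spans end at 99005786 and 6670588. These counts therefore say nothing of enhancers or of starts elsewhere, including other annotated starts. The closest sites in SLAMF8 and DMRT1 are shown for comparison with the chaperone sites.
SLAMF8 (chr1:159826788-159826820, plus strand): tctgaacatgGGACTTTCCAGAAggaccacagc
DMRT1 (chr9:841587-841619, plus strand): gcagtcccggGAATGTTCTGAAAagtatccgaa

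The TATA motif, TATAAA on the gene's strand in the 50 bases before the start, was in 6 of 47 windows (12.8%). Among all promoters it was in 3.33%, and among the other near-silent genes in 6.29%. The 6 genes were EPGN, FOSB, FRG2C, GPR83, LTA and PTGS2. No test was made on these shares.

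**Figure D1:**
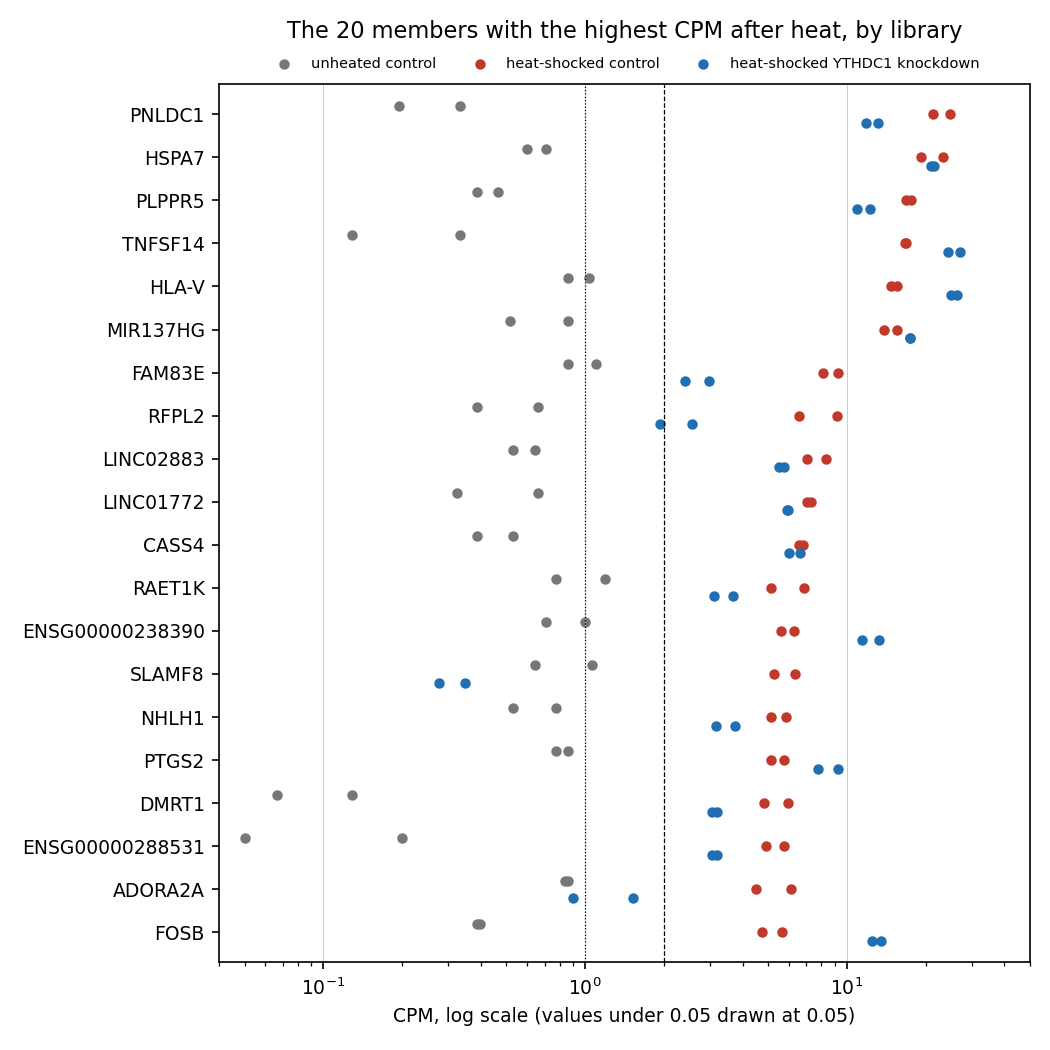
CPM in each of the 6 libraries (log axis) for the 20 genes with the highest CPM after heat. The dotted line is 1 CPM and the dashed line 2 CPM. Grey points (unheated) lie at or below about 1 CPM because the rule asks for it, while blue points (knockdown) lie on either side of the red ones (heat-shocked control), as for TNFSF14 and SLAMF8.

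Beside these 3 genes, HSPA7, HLA-V and MIR137HG passed 10 CPM after heat. HSPA7 is a pseudogene nearly identical to the chaperone gene HSPA6. It stood at 0.710 and 0.597 CPM before heat, 19.2 and 23.3 CPM after heat and 20.9 and 21.6 CPM with the knockdown. The knockdown libraries lay within the range of the heat-shocked controls (log2 fold change -0.02 ± 0.11 SE, edgeR adjusted p = 0.890). HSPA6 itself had a mean of 4.87 CPM before heat, 1466 CPM after heat and 1486 CPM in the knockdown, and reads of such copies can be assigned to either gene.

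HLA-V is a pseudogene of the class I histocompatibility genes. It stood at 1.03 and 0.862 CPM before heat, 14.7 and 15.5 CPM after heat and 25.0 and 26.4 CPM in the knockdown. It was higher with the knockdown in both libraries (log2 fold change 0.75 ± 0.10 SE, edgeR adjusted p = 1.43e-06). MIR137HG, the host transcript of the neuronal microRNA miR-137, stood at 0.516 and 0.862 CPM before heat, 13.9 and 15.6 CPM after heat and 17.5 CPM in each knockdown library. Its difference with the knockdown did not pass the test (log2 fold change 0.23 ± 0.12 SE, edgeR adjusted p = 0.102).

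Read shares favour long transcripts. Per kilobase of the deposited gene length, as TPM (reads per length, scaled to the same total in each library), the order was different. SNORD14E, a small nucleolar RNA of 85 bases inside HSPA8, came first with a mean of 171 TPM after heat and 30.3 TPM before it. ENSG00000238390, of 177 bases and with its first listed exon inside SOD1, followed with 121 TPM after heat and 17.1 TPM before it. Next came HSPA7 at 39.8 TPM and PNLDC1 at 37.7 TPM after heat, with 1.21 and 0.424 TPM before it. The sodium channel gene SCN1A was lowest at 0.470 TPM after heat, and the median of the 118 genes was 5.49 TPM. Already before heat SNORD14E and ENSG00000238390 lay above that median, so they were near-silent by CPM but not by TPM. Reads of short RNAs inside a longer gene cannot be told from reads of that gene, and HSPA8 itself had means of 1872 CPM before heat and 4311 CPM after it.

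By known role the protein-coding genes were mixed. The 4 ligands were TNFSF14, LTA, FGF21 and EPGN. LTA, lymphotoxin alpha of the TNF family, stood at 0.452 and 0.464 CPM before heat, 4.07 and 3.29 CPM after heat and 1.87 and 2.07 CPM in the knockdown. It was lower in both knockdown libraries (log2 fold change -0.91 ± 0.26 SE, edgeR adjusted p = 0.00435). FGF21, a stress hormone of the fibroblast growth factor family, stood at 0.387 and 0.398 CPM before heat, 3.09 and 2.52 CPM after heat and 3.74 and 3.86 CPM in the knockdown, which did not pass the test (log2 fold change 0.43 ± 0.23 SE, edgeR adjusted p = 0.127). EPGN, an EGF receptor ligand, stood at 0.323 and 0.133 CPM before heat, 2.41 and 2.52 CPM after heat and 0.555 and 0.552 CPM in the knockdown. It kept 22.4% of its heat-shocked level (log2 fold change -2.15).

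The 7 receptors had 1 gene higher and 4 lower with the knockdown, where 27.4% of all genes tested were higher and 27.2% lower. SLAMF8, a receptor of the SLAM family known from myeloid cells, showed the largest fall of all 118 genes. It stood at 0.645 and 1.06 CPM before heat, 6.34 and 5.25 CPM after heat and 0.347 and 0.276 CPM with the knockdown. The knockdown libraries lay below the unheated controls as well as below the heated ones (log2 fold change -4.19 against heat-shocked controls).

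ADORA2A, an adenosine receptor, stood at 0.839 and 0.862 CPM before heat, 6.11 and 4.48 CPM after heat and 1.53 and 0.897 CPM in the knockdown. It fell to 22.9% of the heat-shocked level (log2 fold change -2.13 ± 0.28 SE, edgeR adjusted p = 7.11e-07). NPY1R, a receptor of neuropeptide Y, went the other way, with 0.710 and 0.862 CPM before heat, 2.41 and 3.08 CPM after heat and 7.14 and 5.10 CPM in the knockdown (log2 fold change 1.13 ± 0.23 SE, edgeR adjusted p = 1.85e-04). RRH, an opsin of the retinal pigment epithelium, and the orphan receptor GPR83 were the other receptors that fell, with log2 fold changes of -1.35 and -1.01. BDKRB1, the inducible bradykinin receptor, and CHRNA2, a nicotinic acetylcholine receptor subunit, did not pass the test at -0.43 and 0.04.

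Markers of blood cells bear on the leukocyte genes TNFSF14, LTA and SLAMF8. Among these markers CD3E and HBB were at 0 in every library and PTPRC did not pass 0.690 CPM. Their summed level was 16.5 to 18.2 CPM in the controls and 5.27 and 5.73 CPM in the knockdown. Most of it was LCP1, which is also active in many tumour lines. LCP1 stood at 15.7 to 16.7 CPM in the controls and at 4.02 and 4.28 CPM in the knockdown. LCP1 alone passed the filter and was lower with the knockdown (log2 fold change -1.99, edgeR adjusted p = 1.77e-11). Epithelial markers moved the other way, from a summed 444 to 482 CPM in the controls to 700 and 673 CPM in the knockdown. There 5 of 6 were higher, beside 27.4% of all genes tested. The 6 neuron markers bear on members known from neurons, such as MIR137HG, NHLH1 and SCN1A. They summed to 37.1 to 42.3 CPM in the controls and 35.9 and 39.7 CPM in the knockdown, where RBFOX3 and STMN2 were higher (log2 fold changes 0.61 and 1.16) and SNAP25 and GAP43 lower (-1.75 and -1.87). Of 6 muscle markers ACTA1 and DES passed the filter and were lower (-1.02 and -2.07), with a sum of 2.72 to 5.04 CPM in the controls and 1.60 and 2.97 CPM with the knockdown. The part of these markers in the knockdown values was not tested.

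**Figure D2:**
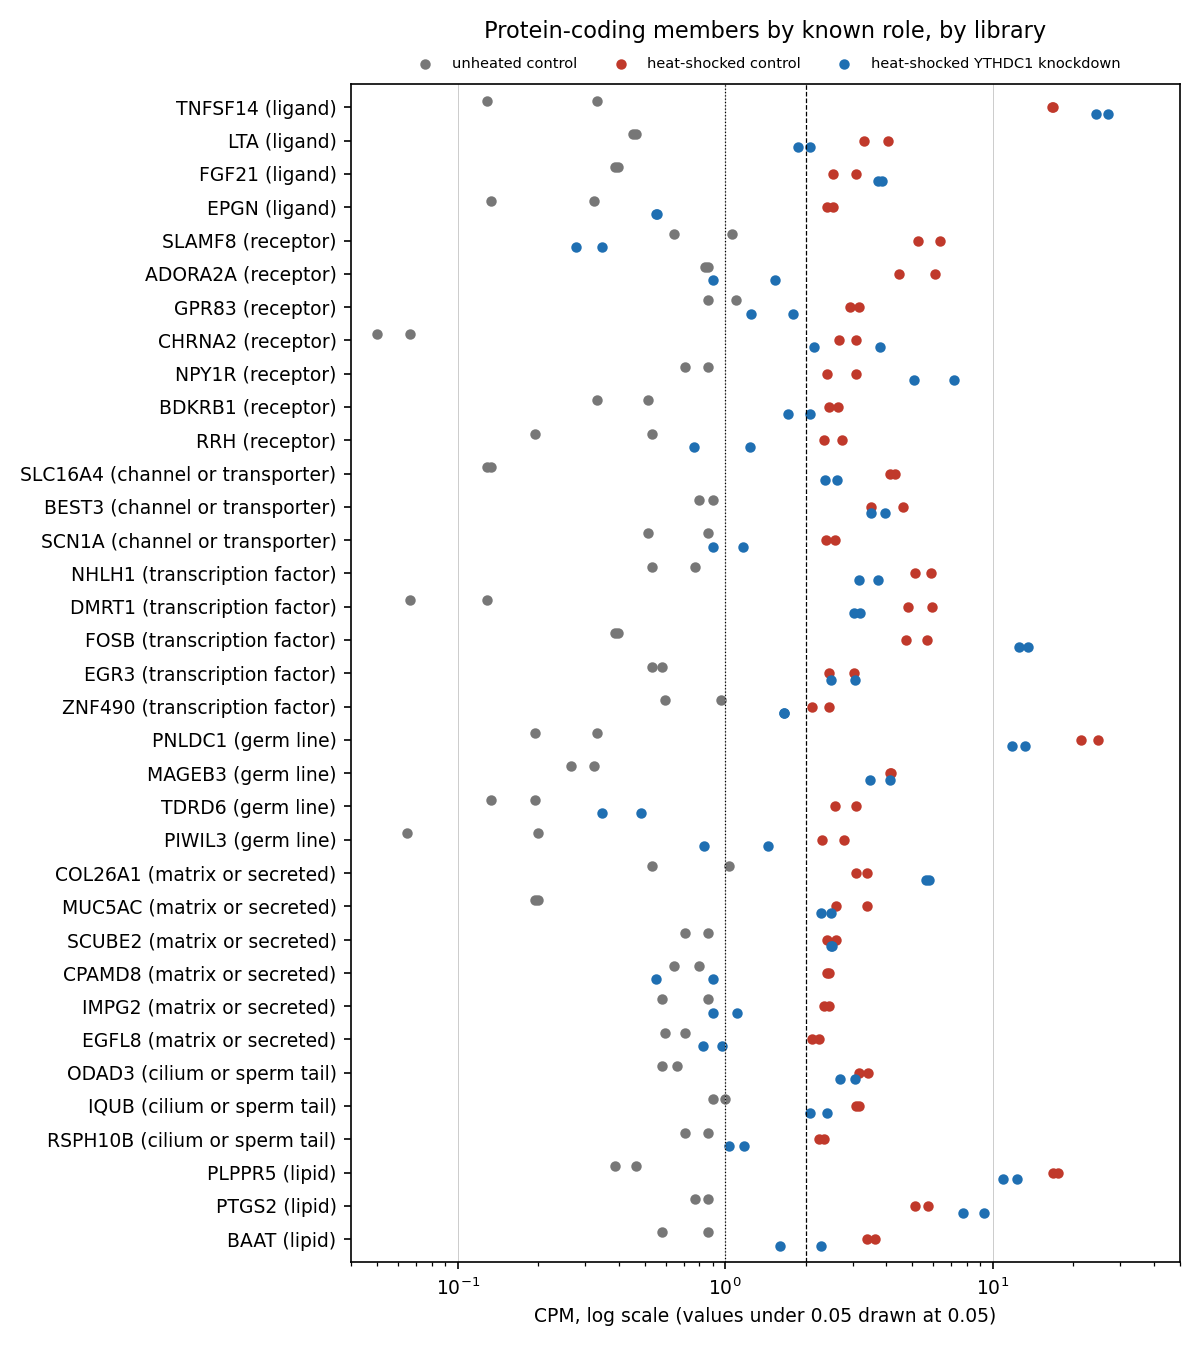
CPM in each of the 6 libraries (log axis) for the protein-coding genes with an assigned role, named in brackets. The dotted line is 1 CPM and the dashed line 2 CPM. Knockdown libraries (blue) of SLAMF8, EPGN and TDRD6 lie under 1 CPM, while those of TNFSF14, FOSB and NPY1R lie to the right of the heat-shocked controls (red).

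Among the 5 transcription factors FOSB rose further with the knockdown. FOSB is an AP-1 subunit of the immediate early genes. It stood at 0.387 and 0.398 CPM before heat, 4.75 and 5.67 CPM after heat and 12.5 and 13.5 CPM in the knockdown, 2.49 times the heat-shocked level (log2 fold change 1.30 ± 0.15 SE, edgeR adjusted p = 1.28e-07). EGR3, another immediate early factor, stood at 3.02 and 2.45 CPM after heat and 3.05 and 2.48 CPM in the knockdown, with nearly the same values in both groups. The groups of EGR3 overlapped, and its log2 fold change was 0.01 ± 0.26 SE. DMRT1, a transcription factor of the testis and germ line, had 3 reads in the unheated controls together, 4.83 and 5.95 CPM after heat and 3.19 and 3.04 CPM in the knockdown (log2 fold change -0.81 ± 0.22 SE, edgeR adjusted p = 0.00288). NHLH1, a neuronal basic helix-loop-helix factor, stood at 5.13 and 5.88 CPM after heat and 3.74 and 3.17 CPM in the knockdown. Its edgeR adjusted p was 0.00824, but 0.0734 without heat-shocked control replicate 2, 0.0617 without knockdown replicate 2 and 0.146 with DESeq2.

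The germ line genes PNLDC1, PIWIL3, TDRD6, MAGEB3 and DMRT1 had 4 of 5 lower with the knockdown, beside 43.2% of all members and 27.2% of all genes tested. TDRD6, a Tudor protein of the chromatoid body in sperm precursors, stood at 0.194 and 0.133 CPM before heat, 2.57 and 3.08 CPM after heat and 0.485 and 0.345 CPM in the knockdown. It kept 14.7% of its heat-shocked level (log2 fold change -2.76). PIWIL3, a PIWI protein that binds piRNAs in oocytes, stood at 0.0645 and 0.199 CPM before heat, 2.79 and 2.31 CPM after heat and 0.832 and 1.45 CPM in the knockdown (log2 fold change -1.17 ± 0.34 SE, edgeR adjusted p = 0.00579). MAGEB3, a cancer-testis antigen gene on the X chromosome, stood at 4.15 and 4.13 CPM after heat and 3.47 and 4.14 CPM in the knockdown, which did not pass the test (log2 fold change -0.14 ± 0.21 SE, edgeR adjusted p = 0.616).

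Other germ cell genes stayed near 0. Of 8 germ cell markers TNP1, PRM1, PRM2, TEX101 and ZPBP were at 0 in every library, and the list summed to 0 to 0.258 CPM before heat, 1.06 and 1.19 CPM after heat and 0.971 and 1.10 CPM in the knockdown. SYCP3, a protein of the meiotic synaptonemal complex, alone passed the filter. It stood at 0.258 and 0 CPM before heat, 0.604 and 0.770 CPM after it and 0.277 and 0.759 CPM in the knockdown. It passed the filter through heat-shocked libraries alone, so no p is given for its rise. Of 20 piRNA pathway genes, a list drawn up after the germ line members were known, 11 passed the filter. With heat 3 of these were higher, and they were PNLDC1, PIWIL3 and TDRD6, which the rule had chosen. Another 2, the methyltransferase gene HENMT1 and TDRD7, were lower. Over all 17290 genes tested, 20.6% were higher and 23.3% lower with heat. With the knockdown 4 of the 11 were higher and 3 lower, beside 27.4% and 27.2% of all genes tested. The 3 lower were again PNLDC1, PIWIL3 and TDRD6. The 4 higher were TDRKH, PIWIL4, TDRD5 and TDRD7, none of them members (log2 fold changes 1.03, 1.78, 0.85 and 0.41).

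Channels and transporters had 2 of 4 genes lower with the knockdown, beside 43.2% of all members. Of all genes tested 27.2% were lower and 27.4% higher. SLC16A4, a monocarboxylate transporter gene, stood at 0.129 and 0.133 CPM before heat, 4.30 and 4.13 CPM after heat and 2.36 and 2.62 CPM in the knockdown (log2 fold change -0.77 ± 0.23 SE, edgeR adjusted p = 0.00714). SCN1A, the neuronal sodium channel, stood at 2.57 and 2.38 CPM after heat and 0.902 and 1.17 CPM in the knockdown (log2 fold change -1.26 ± 0.33 SE, edgeR adjusted p = 0.00262). BEST3, a bestrophin chloride channel, and CHRNA2 had overlapping groups. Of the 3 lipid genes PTGS2, the inducible cyclooxygenase, stood at 0.774 and 0.862 CPM before heat, 5.13 and 5.74 CPM after heat and 7.77 and 9.24 CPM in the knockdown, and was higher there (log2 fold change 0.63 ± 0.17 SE, edgeR adjusted p = 0.00266). BAAT, a bile acid conjugating enzyme, fell with a log2 fold change of -0.87.

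Of the 6 matrix or secreted genes CPAMD8, EGFL8 and IMPG2 fell with the knockdown, by 1.75, 1.28 and 1.26 on the log2 scale. COL26A1, a collagen gene, stood at 3.40 and 3.08 CPM after heat and 5.62 and 5.79 CPM in the knockdown (log2 fold change 0.80 ± 0.22 SE, edgeR adjusted p = 0.00301, DESeq2 adjusted p = 0.0884). The gel-forming mucin MUC5AC and the secreted protein SCUBE2 did not pass the test, at -0.34 and -0.02. Of the 3 genes of cilia or sperm tails RSPH10B fell by 1.06, and ODAD3 and IQUB did not pass the test. With the knockdown 27.4% of all genes tested were higher and 27.2% lower.

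Several of the 118 genes are copies of, or lie inside, genes with far more reads. CACYBPP2 is a pseudogene of CACYBP, which itself had means of 202 CPM before heat and 738 CPM after it. HSD17B7P2 is one of HSD17B7, with 16.1 and 59.7 CPM. RPS3AP38, ACTBP7 and SUMO4 resemble RPS3A, ACTB and SUMO2, whose log2 fold changes with heat were 0.14, -0.30 and 0.04. The parents of CACYBPP2 and HSD17B7P2 thus moved with heat, whereas RPS3A, ACTB and SUMO2 shifted little. RPS3AP38, ACTBP7 and SUMO4 also overlap HERC4, FRMD5 and TAB2 on the same strand. The log2 fold changes of these with heat were 0.77, -0.59 and 0.17. Among all same-strand genes overlapping a member, CLIC2 at TWF1P2 and EFCAB7 at DLEU2L rose most with heat (2.76 and 2.28), while others fell, as FRMD5 did. How reads that fit several places were counted was not stated in the sources used here, so the values of such genes are uncertain.

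A same-strand expressed gene just upstream was a common feature of the members. It was looked for as a gene at 5 CPM or more in the heat-shocked controls that ends within 10 kb before the member's start. Of the 85 genes with a RefSeq position 27 had one (31.8%, exact 95% interval 22.1% to 42.8%), against 1034 of 25034 other near-silent genes (4.13%). Among the 2728 other near-silent genes that reached 0.2 CPM before heat the share was 10.1%, which lies between these values. Within 5 kb the shares were 20% of the members and 2.23% of the other near-silent genes, and within 50 kb they were 47.1% and 14.9%. For those that reached 0.2 CPM before heat they were 5.98% within 5 kb and 26.1% within 50 kb. Genes that overlapped an expressed same-strand gene made up 15.3% of the members and 9.59% of the other near-silent genes. For an opposite-strand gene the order was reversed, with 7.06% and 11.6%. Near-silent genes that reached 0.2 CPM before heat had 7.26% on the same strand and 16.4% on the opposite one. The interval covers counting error only, the groups were not matched for kind or level before heat, and no test was made.

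**Figure D3:**
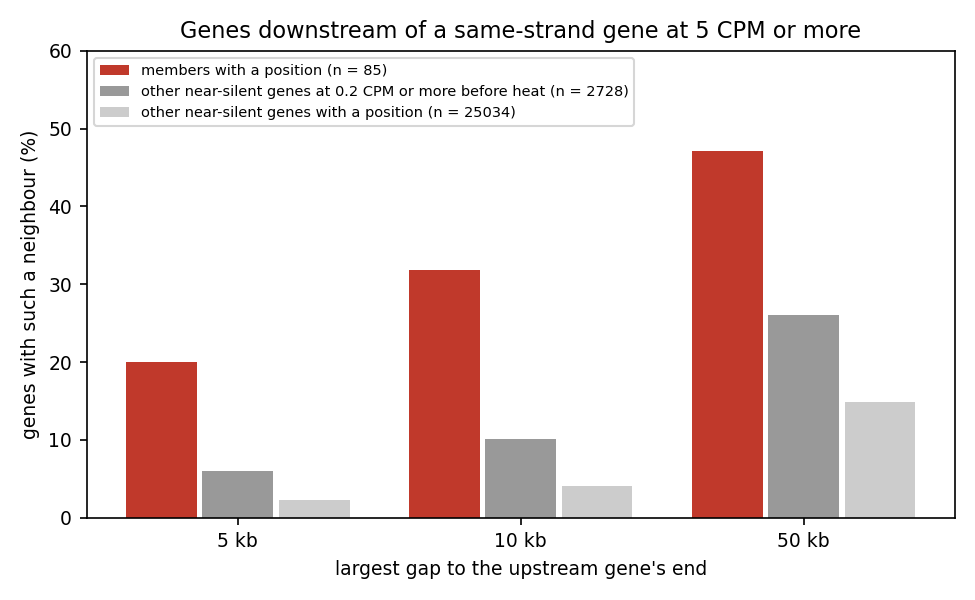
Share of genes (%) that start downstream of a same-strand gene at 5 CPM or more, by the largest gap allowed. Bars give the members (red), other near-silent genes with at least 0.2 CPM before heat (dark grey) and all other near-silent genes (light grey); within 10 kb they stand at 31.8%, 10.1% and 4.13%.

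The upstream genes themselves mostly changed little with heat. There were 28 of them, since SMG1P7 has both AARS1 and EXOSC6, and they spanned 8.98 to 599 CPM in heat-shocked controls. Their median log2 fold change with heat was 0.12, and 2 of 28 had one of 1 or more. These were MRPL18, a mitochondrial ribosomal protein gene that ends 1025 bases before PNLDC1, and KLHL25, which ends 600 bases before the non-coding RNA LINC02883. MRPL18 had a mean of 71.9 CPM before heat, 227 CPM after heat and 260 CPM in the knockdown. KLHL25 had 24.1, 120 and 123 CPM in that order. LINC02883 stood at 0.645 and 0.531 CPM before heat, 8.30 and 7.07 CPM after heat and 5.76 and 5.52 CPM in the knockdown. Its edgeR adjusted p of 0.0243 for the knockdown became 0.190 without heat-shocked control replicate 1, 0.0948 without knockdown replicate 2 and 0.255 with DESeq2.

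FAM83E lies behind the most strongly expressed of these upstream genes. It is on the minus strand of chromosome 19 (chr19:48599961-48615076), 254 bases beyond the ribosomal protein gene RPL18. RPL18 had means of 556 CPM before heat, 599 CPM after heat and 573 CPM in the knockdown. FAM83E stood at 1.10 and 0.862 CPM before heat, 9.28 and 8.12 CPM after heat and 2.98 and 2.41 CPM in the knockdown, a fall to 31.0% (log2 fold change -1.70 ± 0.20 SE, edgeR adjusted p = 8.85e-08).

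Other members behind an expressed gene were TDRD6 (2077 bases beyond SLC25A27), EPGN (5370 bases beyond MTHFD2L), ADORA2A (5858 bases beyond SPECC1L) and TNFSF14 (7115 bases beyond C3). The complement gene C3 had means of 18.4 CPM before heat, 18.8 CPM after heat and 10.9 CPM in the knockdown. NHLH1, TMEM81, GIPC3, SMG1P7 and PARD6G-AS1 were also among the 8 with the most strongly expressed upstream genes, namely NCSTN at 62.8 CPM, RBBP5 at 65.7 CPM, HMG20B at 86.2 CPM, AARS1 at 200 CPM and ADNP2 at 107 CPM. None of TMEM81, GIPC3 and SMG1P7 passed the test in the knockdown, with log2 fold changes of -0.69, -0.09 and 0.41. PARD6G-AS1 did at 0.54 (edgeR adjusted p = 0.0450), but not without any of the 4 heat-shocked libraries in turn (0.0656 to 0.165) or with DESeq2 (0.313). A table of gene counts does not show whether reads form a continuous stretch from the upstream gene, so read-through was not tested.

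Of the 33 genes without a position, 12 had their first listed exon inside a gene at 5 CPM or more, 5 on the same strand and 7 on the opposite one. ENSG00000287697 lies opposite CACYBP in this way. Also, 5 pairs of members lay within 20 kb of each other, among them LINC02883 with ENSG00000259762 at 4605 bases and PARD6G-AS1 with ENSG00000278000 at 13844 bases. The table lists ADCY10P1 under 2 identifiers that lie 12 bases apart, so these count as 2 members of 1 locus.

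Across the 118 genes the knockdown libraries mostly stayed above the unheated controls and lay on either side of the heat-shocked ones. Both knockdown libraries stood above both unheated controls for 108 genes, overlapped them for 8 and lay below them for 2, SLAMF8 and the ADCY10P1 entry ENSG00000290554. Among all 47352 near-silent genes, 8.98% had both knockdown libraries above both unheated ones. At 2 CPM or more in both knockdown libraries stood 64 of the 118, against 160 of all 47352 near-silent genes (0.338%), so 96 near-silent genes outside the set also reached it. A further 54 members missed 2 CPM in at least 1 knockdown library, and 14 had a mean under 1 CPM there. The median log2 fold change from unheated controls was 2.67 in heat-shocked controls and 2.26 in the knockdown, which share those controls.

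**Figure D4:**
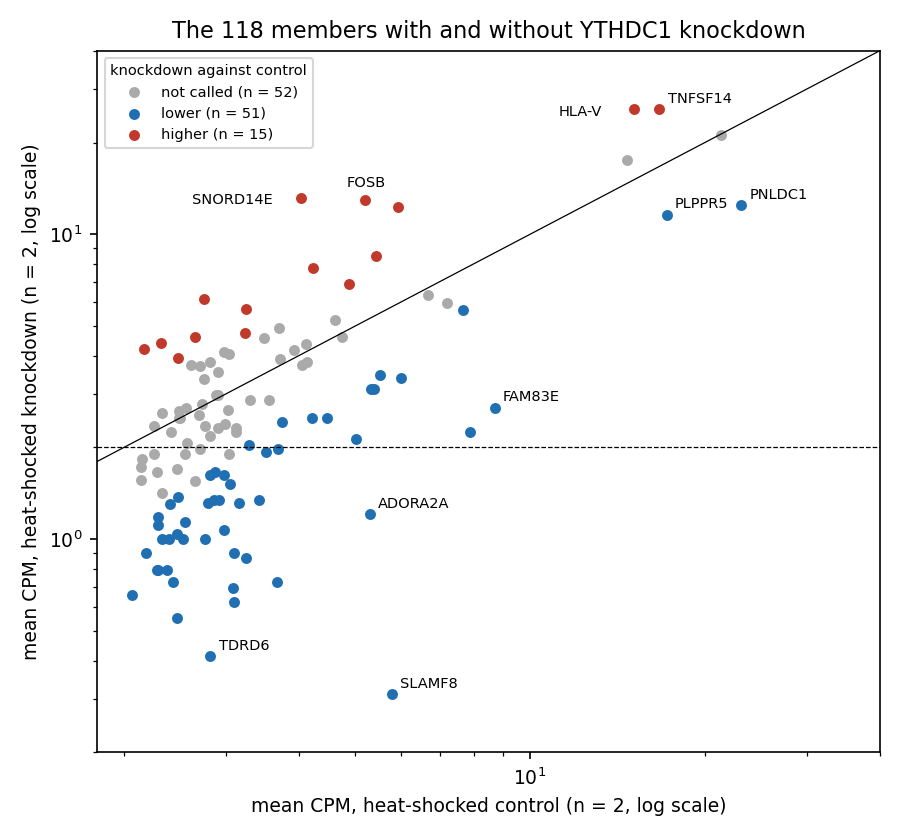
Mean CPM of the 118 genes in heat-shocked controls (x) and in the heat-shocked knockdown (y), both log axes, n = 2 libraries each, coloured by the edgeR call. The solid line marks equal values and the dashed line 2 CPM. The 51 blue genes lie below the solid line and the 15 red genes above it, and SLAMF8 lies lowest.

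The largest rises were those of SNORD14E and FOSB. SNORD14E stood at 0.516 and 0.929 CPM before heat, 3.17 and 4.90 CPM after heat and 11.8 and 14.6 CPM in the knockdown (log2 fold change 1.68 ± 0.19 SE, edgeR adjusted p = 4.86e-08). HSPA8, its host, had a log2 fold change of -0.13 in the same comparison. ENSG00000238390, the short RNA in SOD1, stood at 5.58 and 6.30 CPM after heat and 13.3 and 11.4 CPM in the knockdown (log2 fold change 1.04 ± 0.15 SE, edgeR adjusted p = 4.19e-06). RMRP, the RNA of the RNase MRP complex, was also higher, at 2.72 and 2.59 CPM after heat and 4.16 and 5.04 CPM in the knockdown (log2 fold change 0.78 ± 0.23 SE, edgeR adjusted p = 0.00659). These 3 are RNAs of under 300 bases in the deposited lengths, and how the libraries kept such short RNAs was not stated in the sources used here.

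LINC03016, a non-coding RNA, stood at 4.0 and 4.48 CPM after heat and 7.35 and 8.14 CPM in the knockdown (log2 fold change 0.85 ± 0.18 SE, edgeR adjusted p = 2.80e-04). FRG2C and LLPH-DT were higher as well, with log2 fold changes of 0.94 and 0.90. The DESeq2 adjusted p was 0.119 for FRG2C and 0.0836 for LLPH-DT, and without knockdown replicate 2 the edgeR adjusted p of FRG2C was 0.186.

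Beside SLAMF8, TDRD6, EPGN and ADORA2A, the largest falls were those of a pseudogene, a long non-coding RNA and entries without a RefSeq match. ENSG00000267711 stood at 0.645 and 1.06 CPM before heat, 3.70 and 3.64 CPM after heat and 0.763 and 0.690 CPM in the knockdown, within the range of the unheated controls (log2 fold change -2.34 ± 0.32 SE, edgeR adjusted p = 1.52e-06). ENSG00000273851 had 3 reads in the unheated controls together, 3.17 and 3.01 CPM after heat and 0.555 and 0.690 CPM in the knockdown (log2 fold change -2.31). The ADCY10P1 entry ENSG00000290554, a pseudogene of soluble adenylate cyclase, stood at 1.03 and 0.929 CPM before heat, 2.94 and 3.22 CPM after heat and 0.694 and 0.690 CPM in the knockdown (log2 fold change -2.16 ± 0.33 SE). The other ADCY10P1 entry, ENSG00000161912, fell too, by 1.47.

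LINC00163 stood at 0.387 and 0.265 CPM before heat, 2.72 and 3.78 CPM after heat and 0.902 and 0.828 CPM in the knockdown (log2 fold change -1.92 ± 0.33 SE, edgeR adjusted p = 3.00e-05). RFPL2, a RING-type protein of the ret finger protein-like family, stood at 0.387 and 0.663 CPM before heat, 9.21 and 6.58 CPM after heat and 1.94 and 2.55 CPM in the knockdown, and kept 28.5% of its heat-shocked level (log2 fold change -1.82 ± 0.23 SE, edgeR adjusted p = 3.77e-07). RAET1K, a pseudogene of the NKG2D ligand family, stood at 5.13 and 6.86 CPM after heat and 3.68 and 3.10 CPM in the knockdown. Its edgeR adjusted p of 0.00204 became 0.0600 without heat-shocked control replicate 2 and 0.0636 with DESeq2.

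LINC01772 and CASS4 kept most of their level. LINC01772 stood at 7.32 and 7.07 CPM after heat and 5.96 and 5.93 CPM in the knockdown, and CASS4, an adaptor protein of focal adhesions, at 6.56 and 6.79 CPM and at 6.03 and 6.62 CPM. Neither passed the test, with log2 fold changes of -0.29 ± 0.17 and -0.09 ± 0.17 SE.

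By position the knockdown values overlapped widely. Of the 27 members downstream of an expressed gene 4 were higher and 15 lower (median log2 fold change -0.78). Of the 15 that only overlapped an expressed gene 1 was higher and 4 lower (median -0.22). Of the 43 with neither relation 7 were higher and 17 lower (median -0.34), and of the 33 without a position 3 were higher and 15 lower (median -0.46). The spread within each class was wider than the distance between their medians, and the difference between classes was not tested. Over all genes tested 27.4% were higher and 27.2% lower.

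**Figure D5:**
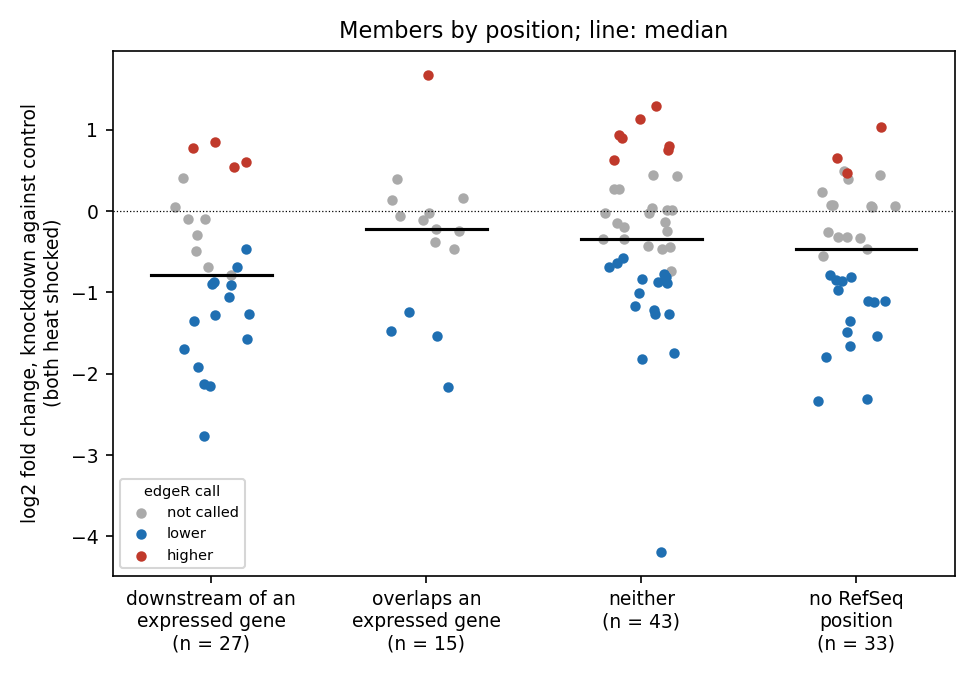
Log2 fold change of each of the 118 genes, knockdown against control in heat-shocked cells, by position relative to an expressed gene; points are genes coloured by the edgeR call and the line is the median. Medians run from -0.78 (downstream of an expressed gene, n = 27) to -0.22 (overlapping one, n = 15), and the classes overlap widely.

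By kind, the protein-coding members had 6 of 49 higher and 24 lower, with a median of -0.58. The non-coding RNAs had 3 of 11 higher and 5 lower, and the pseudogenes 1 of 22 higher and 6 lower, both with a median of -0.29. Entries without a RefSeq match had 3 of 33 higher and 15 lower. Over all genes tested 27.4% were higher and 27.2% lower, and the heat-shocked controls had chosen the members of every kind.

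The known heat response is given beside the members. Of 29 genes on that list, which includes HSPA7, 28 passed the filter and 28 were higher with heat (median log2 fold change 2.49). Of all genes tested 20.6% were higher with heat. With the knockdown 5 of the 28 were higher and 12 lower, with a median of -0.09 and a range of -0.64 to 0.22, and over all genes tested 27.4% were higher and 27.2% lower. The widest fall was that of HSPA1L, from 67.6 and 71.7 CPM to 47.5 and 43.0 CPM. Its log2 fold change was -0.64. These genes had far more reads than the members, and the ranges were not compared by a test.

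Most relatives of TNFSF14, PNLDC1 and PLPPR5 fell with heat, were not called or did not pass the filter. Of 18 TNF family ligands 7 passed the filter. With heat TNFSF14 and LTA were higher by the rule, while LTB, TNFSF9 and TNFSF15 were lower, with log2 fold changes of -1.05, -1.67 and -0.80. Of all genes tested 20.6% were higher and 23.3% lower with heat. LTB, the partner of LTA in the membrane-bound lymphotoxin, stood at 5.29 and 5.50 CPM before heat, 3.02 and 1.96 CPM after heat and 0.0694 and 0.276 CPM in the knockdown. The receptors TNFRSF14 and LTBR were both lower with heat (log2 fold changes -0.70 and -0.34, edgeR adjusted p = 2.39e-04 and 1.90e-04), and the decoy receptor TNFRSF6B was at 0 in every library.

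PARN, the poly(A)-specific ribonuclease that PNLDC1 resembles, stood at 44.5 and 45.4 CPM before heat and 36.0 and 39.6 CPM after it, which did not pass the test (edgeR adjusted p = 0.0532). TOE1, the third of these nucleases, was lower with heat (log2 fold change -0.78). In the family of PLPPR5, PLPPR2 stood at 17.2 and 15.1 CPM before heat and 17.1 and 13.9 CPM after it, PLPPR4 and PLPPR1 did not pass 1.32 CPM in any library, and PLPPR3 was at 0.

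The rule cut through a continuous range. SMG1P7 and RAET1K lay just inside the limit before heat with means of 0.986 and 0.984 CPM, and PLAC8L1 and KIAA1614 just outside it with 1.01 and 1.02 CPM. After heat IFT122P3 and CSAG4 had a lower library at 2.03 CPM, and TMPRSS9 and INTS6-AS1 missed the limit with 1.96 CPM.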

How the data were processed

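The deposited table holds whole-number read counts per gene that the authors did not normalize, with a length and exon coordinates for each of 63187 genes. HISAT2 2.2.1, featureCounts 2.0.2 and GRCh38 are named in the submitters' processing notes. The annotation and the strand setting were not stated in the sources used here. From the counts, CPM by column total and TPM from the deposited length were computed, and edgeR 4.0.16 (robust quasi-likelihood test with TMM scaling and filterByExpr at a minimum count of 10) was fitted to all 6 libraries in R 4.3.3, with 3 residual degrees of freedom, 17290 genes and Benjamini-Hochberg adjustment at 0.05. Each SE is the size of the log2 fold change divided by the square root of the F value of the same edgeR test. The script was tested on simulated data. The members, gene lists and roles were chosen with earlier results of these data known, and the roles and the piRNA list after the members were known. Genes were named by level after heat (15), by the largest rises and falls in the knockdown (8 each), by the level of an upstream neighbour (8), and as PNLDC1, TNFSF14 and PLPPR5; others were named for their role or copy after their values were seen. Positions and 300-base promoter windows are RefSeq's on GRCh38.p14, with strands from the table. Windows were matched by symbol and chromosome for 47 members. Positions were matched for 85 members, where a single entry of that symbol and chromosome lay near the first listed exon. No fold with heat is given for the 8 members with 3 or fewer unheated reads in all. A listed marker is not reported here. Same-numbered libraries did not deviate together (correlations of -0.00, -0.06 and 0.05 over 11514 genes). Replicates differed by more than sampling noise. Alternatives were DESeq2 1.42.0, another filter, leaving out each library, a replicate block, and other limits for the rule, the neighbours and the motif.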

Additional observations from a re-analysis of the deposited data

How the results depend on the processing

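With 2 libraries per group and most members near 2 CPM, calls on single genes rest on few reads. DESeq2 called 7 members higher and 22 lower, against 15 and 51 in edgeR. Over all genes it called 3225 higher and 3275 lower, against 4729 and 4696 in edgeR. Without each library in turn 12 to 15 were higher and 41 to 52 lower. The replicate numbers do not pair the libraries, and a replicate block gave 14 higher and 52 lower. The rule took 118 genes, but 52 with a mean under 0.5 CPM before heat, 459 at 1 CPM or more after heat, 16 at 5 CPM or more after heat, and 117 to 166 without each library in turn. At 5 CPM in both knockdown libraries stood 17 members instead of 64, and without each library 69 to 74 reached 2 CPM. The share of members behind an expressed gene was 31.8% within 10 kb, 20% within 5 kb and 47.1% within 50 kb. The share with the heat shock element went from 0 to 21.3% with 2 units and 10.6% with 1 mismatch. Of 33 named members under 13 alternatives, 405 of 429 results kept their direction and their side of the threshold, 19 lost the call and 3 gained it. HSPA7 ran from -0.15 to 0.12 without each library in turn (main value -0.02), turning without heat-shocked control replicate 2. GIPC3 ran from -0.76 to 0.37 (main value -0.09), turning without knockdown replicate 1, and neither passed the threshold. The block moved PARD6G-AS1 out of the calls (edgeR adjusted p = 0.0509) and TMEM81 into them (0.0492). The cause of these shifts was not tested.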
